A study of Mus musculus with 3 samples.

Results

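Cebpa and Prox1 encode transcription factors of the hepatocyte lineage, and the peaks of HNF4A and FOXA2 around both genes are described here. A peak was included when it overlapped one of 2 windows of the mm9 mouse genome, fixed by position alone. The Cebpa window was chromosome 7 from 35860000 to 35980000 (120 kb), with the gene at about 35904300 to 35907000 on the plus strand. The Prox1 window was chromosome 1 from 191880000 to 192080000 (200 kb), with the gene at about 191942000 to 191994600 on the minus strand. Together they held 29 of the 21041 peaks of both factors, 13 around Cebpa and 16 around Prox1. Whether a peak acts on the gene it lies beside was not measured.

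The peaks come from chromatin immunoprecipitation with sequencing of hepatoblasts, the fetal liver cells that give rise to hepatocytes and to cholangiocytes. Cells carrying the surface protein DLK1 were enriched magnetically from pooled livers of wildtype C57BL/6 mice at embryonic day 14.5, and no treatment was applied. There were 3 libraries from such cells: 1 precipitated with an antibody to HNF4A, 1 with an antibody to FOXA2, and 1 input without an antibody. With 1 library each there is no replicate check and no test between factors or genes, and since peak lists carry no expression, the labelled cell type could not be checked against its markers.

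C/EBPα, the product of Cebpa, is a basic leucine zipper factor that halts proliferation and drives metabolic and secretory genes as hepatocytes mature. PROX1 is a homeodomain factor that is among the earliest markers of the liver bud, is needed for hepatoblasts to leave the bud, and can bind HNF4A and restrain its activity. HNF4A is a nuclear receptor at the core of the hepatocyte factor network, and FOXA2 is a forkhead protein that can bind nucleosomal DNA. Liver transcription factors commonly bind near one another's genes, from promoters as well as from distant elements.

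The sequences before the gene starts are shown first. Neither factor had a peak covering the approximate mm9 start of either gene given above. The nearest peaks were centred 1.8 kb before the Cebpa start and 3.6 kb after the Prox1 start. They thus lay outside the 250 bases before these approximate starts. The sequences shown are the 250 bases before each start that RefSeq lists for the later build GRCm38.p6. They are written 5′ to 3′ along the gene, with 1 entry for Cebpa and 2 for Prox1. The second Prox1 start lies inside the gene, and of its entry only the stretch that holds the matches is printed. Its position in mm9 was not determined, so whether a peak covers it is unknown. Capitals mark matches, on either strand, to a TATA word (TATAAA) or to a forkhead word (TGTTTAC or TGTTTGC, and TATTTAC or TATTTGC).
Cebpa: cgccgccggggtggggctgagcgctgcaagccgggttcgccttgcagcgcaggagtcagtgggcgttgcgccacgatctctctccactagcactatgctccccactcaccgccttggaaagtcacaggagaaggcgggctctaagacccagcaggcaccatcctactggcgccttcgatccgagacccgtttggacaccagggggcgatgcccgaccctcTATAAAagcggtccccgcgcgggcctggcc
Prox1 start 1: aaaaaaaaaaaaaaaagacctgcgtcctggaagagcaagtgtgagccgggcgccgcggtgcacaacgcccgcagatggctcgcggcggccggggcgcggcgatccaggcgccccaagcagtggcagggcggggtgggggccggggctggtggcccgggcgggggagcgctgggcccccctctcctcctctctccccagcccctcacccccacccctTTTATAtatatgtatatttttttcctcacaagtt
Prox1 start 2: TATTTGCttgcTGTTTGC

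The Cebpa entry held a TATA word 30 to 25 bases before the start, in an entry of 66.4% G and C. The first Prox1 entry held the word on the opposite strand 34 to 29 bases before its start, with 64.8% G and C. A TATA word was present in 12.4% of the 32851 promoter entries of this length, whose median G and C content was 52.4%. Forkhead words appeared only in the second Prox1 entry among the 3, as TATTTGC at 131 to 125 and TGTTTGC at 120 to 114 bases before that start. Any of the 4 forkhead words occurred in 11.9% of all entries. The HNF4 core word CAAAGTCCA was in none of the 3 entries and in 0.384% of all. These matches describe letters and not bound sites. The bases under the peaks themselves were not analysed here, and neither were exons and introns in mm9.

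Each deposited peak has a whole-number score without a stated definition. Scores were therefore read only within a list, with rank 1 for the highest score and tied peaks at their mean rank; a rank is also given as a percent of the list, where a small percent is a strong peak. HNF4A scores ran from 16 to 294 with a median of 23 over 11703 peaks, and FOXA2 scores from 11 to 165 with a median of 15 over 9338 peaks. The depth of the libraries is unknown, so a missing peak means only that none passed the threshold of that list. No input region lay in either window: the closest was 3291 kb from a Cebpa peak and 5039 kb from a Prox1 peak.

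Around Cebpa, HNF4A had 7 peaks and FOXA2 had 6, all outside the gene itself and at 10 separate sites. HNF4A was strongest just before the promoter, whereas the FOXA2 peaks of highest score lay well beyond the other end of the gene. Of the HNF4A peaks, 6 scored at or above the list median, and of the FOXA2 peaks 4 did. Because of ties, 6142 of the 11703 HNF4A peaks and 4997 of the 9338 FOXA2 peaks in the whole lists do so. Peak density was 5.83 per 100 kb for HNF4A and 5.0 per 100 kb for FOXA2.

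The strongest HNF4A peak at Cebpa was at 35901541 to 35901935, centred 2.6 kb before the start, with a score of 68. It ranked 334 of 11703, at 2.85% of the list. FOXA2 did not overlap it, but a FOXA2 peak began 376 bp nearer the gene, at 35902312 to 35902735 and centred 1.8 kb before the start. That FOXA2 peak had a score of 11, the minimum that 16.5% of the list shares. The region just before Cebpa thus combined a high-ranking HNF4A peak with a FOXA2 peak at the minimum of its list, side by side.

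Farther before the gene the peaks were more modest. HNF4A had a peak of score 16, the lowest in its list, at 35893572 to 35893954, 10.5 kb before the start, with no FOXA2 peak within 8.4 kb. An HNF4A peak of score 41 at 35875466 to 35875925, 28.6 kb before the start and at 15.1% of its list, overlapped a FOXA2 peak of score 14 at 35875552 to 35875926, at 57.6% of its list. An HNF4A peak of score 31 at 35865978 to 35866382 and a FOXA2 peak of score 15 at 35869966 to 35870392 lay 3.6 kb apart, 38.1 and 34.1 kb before the start. On this side the HNF4A peaks stood higher in their list than their FOXA2 neighbours, except for the peak of score 16.

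Beyond the gene, the first peak was for FOXA2 alone, at 35912803 to 35913149, 8.7 kb from the start, with a score of 18. The next site held both factors 24.8 kb from the start. Its HNF4A peak at 35928739 to 35929460 was broad, at 722 bp against a list median of 430 bp, with a score of 25, and its FOXA2 peak at 35928844 to 35929190 had a score of 28. The site 30.9 kb from the start was the one with the most even ranks. There the HNF4A peak at 35935037 to 35935445 had a score of 52, at 7.59% of its list. The FOXA2 peak at 35935054 to 35935385 had a score of 38, at 7.49%. Last came an HNF4A peak without FOXA2 at 35952959 to 35953421, 48.9 kb from the start, with a score of 56 at 5.84% of the list. The nearest FOXA2 peak to it was 17.6 kb away. RefSeq lists Slc7a10, which encodes an amino acid transporter, as the next protein-coding gene on this side; its position in mm9 was not analysed here.

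**Figure D1:**
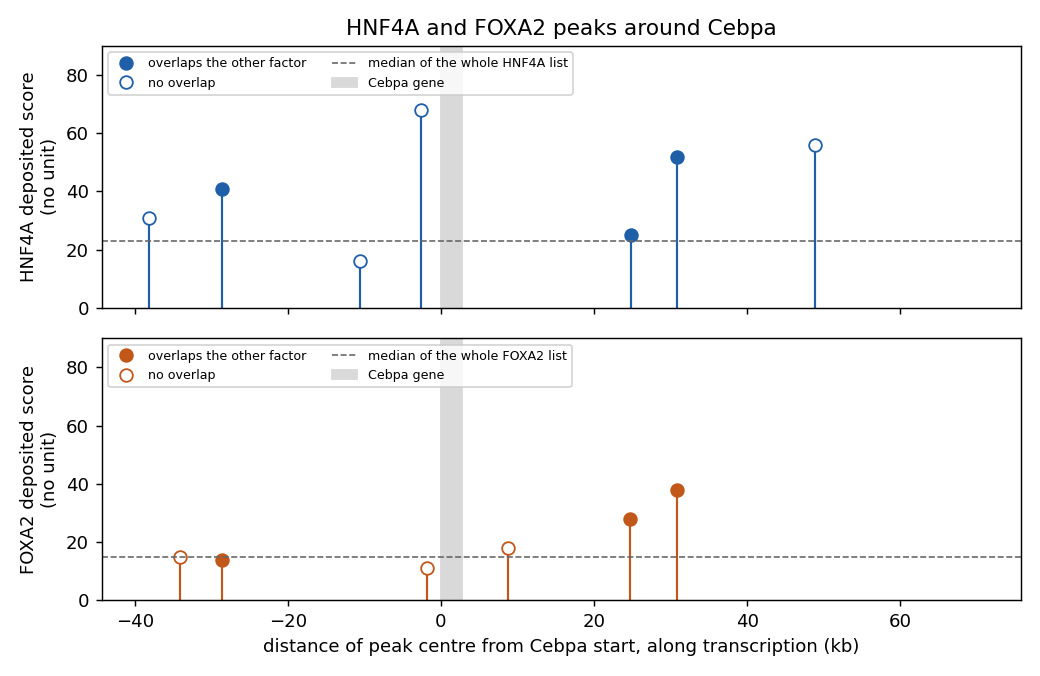
Peaks of HNF4A (upper panel) and FOXA2 (lower panel) in the Cebpa window. The x axis is the distance of the peak centre from the gene start in kb along transcription, the y axis is the deposited score, filled points overlap the other factor, the dashed line is the median score of the whole list and the grey band is the gene. The highest HNF4A point (68) is open and lies just before the gene, and the highest FOXA2 point (38) is filled and lies 30.9 kb after the start.

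Around Prox1, HNF4A had 9 peaks and FOXA2 had 7, at 10 separate sites, and unlike at Cebpa some lay inside the gene. The genes differ in length, however: Prox1 spans 52.6 kb of its 200 kb window and Cebpa 2.7 kb of its 120 kb window. Whether the contrast goes beyond gene length was not tested. FOXA2 was strongest within the gene, where the overlapping HNF4A peaks scored below their list median, and HNF4A was strongest far before it. Of the HNF4A peaks 7 scored at or above the list median, and of the FOXA2 peaks 6 did. The whole lists hold 6142 of 11703 such HNF4A peaks and 4997 of 9338 such FOXA2 peaks. The densities were 4.5 and 3.5 peaks per 100 kb.

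Inside Prox1, the FOXA2 peaks that overlapped HNF4A stood higher in their list than their HNF4A partners did in theirs. The strongest FOXA2 peak of both windows was at 191953411 to 191953761, 41.0 kb into the gene, with a score of 70, at rank 81 of 9338 or 0.867% of the list. It overlapped an HNF4A peak at 191953375 to 191953820 with a score of only 22, just under the list median, at 54.7%. Their centres were 11.5 bp apart, the closest of all pairs described here. The second site, 48.2 kb from the start, repeated this balance, with a FOXA2 peak of score 39 at 191946172 to 191946532 (6.99% of the list) and an HNF4A peak of score 17 at 191946295 to 191946704 (85.8%). A FOXA2 peak without HNF4A lay nearest to the start, at 191990821 to 191991168, 3.6 kb into the gene, with a score of 29 at 14.0% of the list. Between it and the peaks at 41.0 kb, 37.0 kb of the gene had no peak of either factor.

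At the 3′ end of Prox1, HNF4A had a peak of score 24 without FOXA2, at 191941875 to 191942216. The gene end is known here only as a rounded position, so the peak cannot be placed inside or outside the gene. Some 10 kb farther, beyond the gene, 5 peaks were packed into 1.95 kb, from 191930013 to 191931960. The middle HNF4A peak, at 191930553 to 191931328, scored 55 (6.16% of the list) and was the widest in either window at 776 bp. It overlapped a FOXA2 peak at 191930564 to 191931009 with a score of 36 (8.58%). HNF4A peaks of score 35 at 191930013 to 191930460 and of score 25 at 191931556 to 191931809 lay 92 and 227 bp to its sides, and the latter overlapped a FOXA2 peak of score 17 at 191931564 to 191931960. Groups of 3 HNF4A peaks within so short a length (1797 bp) were rare, involving 15 of 11703 peaks, 0.128% of the list. That limit is the exact length of this group, whose 3 HNF4A peaks are among the 15, so the share describes the group and tests nothing. Whether such a group is several sites or 1 broad site divided by the peak caller cannot be told apart from these files.

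Before Prox1, HNF4A had a peak of score 25 without FOXA2 at 192004814 to 192005127, 10.4 kb from the start. The strongest HNF4A peak of both windows followed 34.0 kb before the start, at 192028222 to 192028913, with a score of 79, at rank 179.5 of 11703 or 1.53% of the list. It contained a FOXA2 peak of score 28 at 192028355 to 192028889, at 15.1% of its list. Both were wide for their lists, at 692 bp for HNF4A and 535 bp for FOXA2, where the list medians were 430 and 367 bp. RefSeq lists Prox1os, a long noncoding RNA, across the start of Prox1, and Rps6kc1 as the next coding gene on this side. The last site of the window lay 111.4 kb from the start and 58.8 kb past the gene end, toward Smyd2, the next coding gene on that side. It paired an HNF4A peak of score 30 at 191882932 to 191883374 with a FOXA2 peak of score 14 at 191883054 to 191883438.

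**Figure D2:**
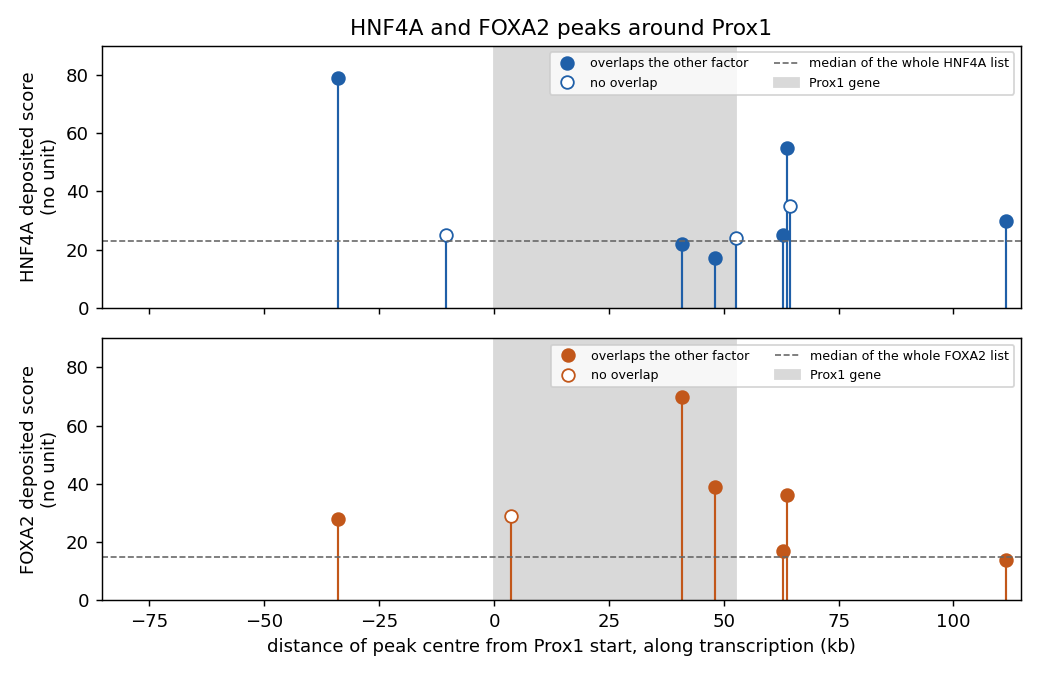
Peaks of HNF4A (upper panel) and FOXA2 (lower panel) in the Prox1 window, drawn along transcription so that the gene (grey band) runs to the right from its start at 0 kb. The y axis is the deposited score, filled points overlap the other factor and the dashed line is the median of the whole list. The highest FOXA2 point (70) stands over an HNF4A point of 22 inside the gene, and the highest HNF4A point (79) stands over a FOXA2 point of 28 before it.

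Overlap between the factors was counted from at least 1 shared base. At Cebpa, 3 of 7 HNF4A peaks met a FOXA2 peak (42.9%, 95% Clopper-Pearson interval 9.9 to 81.6%), and 3 of 6 FOXA2 peaks met an HNF4A peak (50.0%, 11.8 to 88.2%). In the whole lists these shares were 24.4% for HNF4A and 30.7% for FOXA2, and both lie inside the Cebpa intervals. At Prox1, 6 of 9 HNF4A peaks were shared (66.7%, 29.9 to 92.5%) and 6 of 7 FOXA2 peaks (85.7%, 42.1 to 99.6%). The whole-list shares lie below both Prox1 intervals. These intervals cover counting error only and are too narrow where neighbouring peaks are not independent, and the windows were chosen with results of these data known. Counted as sites, 3 of 10 at Cebpa and 6 of 10 at Prox1 held both factors, against 15.7% of the 18159 nuclear sites of both lists.

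Part of the sharing at Prox1 rested on peaks of low score. When both lists were limited to peaks at or above their medians, 3 of 7 HNF4A and 3 of 6 FOXA2 peaks were shared at Prox1, and 2 of 6 and 2 of 4 at Cebpa. Over the whole lists limited in the same way, 21.6% of HNF4A and 26.8% of FOXA2 peaks were shared. Both shares lie inside the intervals given above for counts of 3 of 7 (9.9 to 81.6%) and 3 of 6 (11.8 to 88.2%). With 7 and 6 peaks these intervals are wide, so they cannot tell whether the limited Prox1 shares differ from the limited lists. The pairs lost at Prox1 were the 2 inside the gene, where HNF4A scored 17 and 22, and the outermost, where FOXA2 scored 14. The peak centres of the 9 pairs lay 11.5 to 154 bp apart, and in 7 of the 9 they were at most 100 bp apart, as in 72.5% of all 2879 overlapping pairs.

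The balance between the factors differed from pair to pair. Around each gene, 1 pair had both peaks in the top 10% of their lists, at 30.9 kb from the Cebpa start and 63.7 kb from the Prox1 start. This holds for 4.97% of all pairs of overlapping peaks. A FOXA2 peak in the top 10% over an HNF4A peak ranked beyond 50% of its list was found in 2 of 6 pairs at Prox1, both inside the gene, and in 0 of 3 at Cebpa. Such pairs made up 6.43% of all pairs. The limits for both kinds of pair were chosen after the values were seen, so these shares describe the pairs and test nothing. HNF4A stood higher in its list than FOXA2 at the pair before Prox1 (1.53 against 15.1%) and at the pair before Cebpa (15.1 against 57.6%). It also did so at the pairs 63.7 kb (6.16 against 8.58%) and 111.4 kb (30.4 against 57.6%) from the Prox1 start. The remaining Prox1 pair, at 62.9 kb, had nearly even ranks (43.4 against 40.3%). FOXA2 stood higher than HNF4A at the Cebpa pair 24.8 kb from the start as well (15.1 against 43.4%), so pairs leaning to either factor occurred at both genes.

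**Figure D3:**
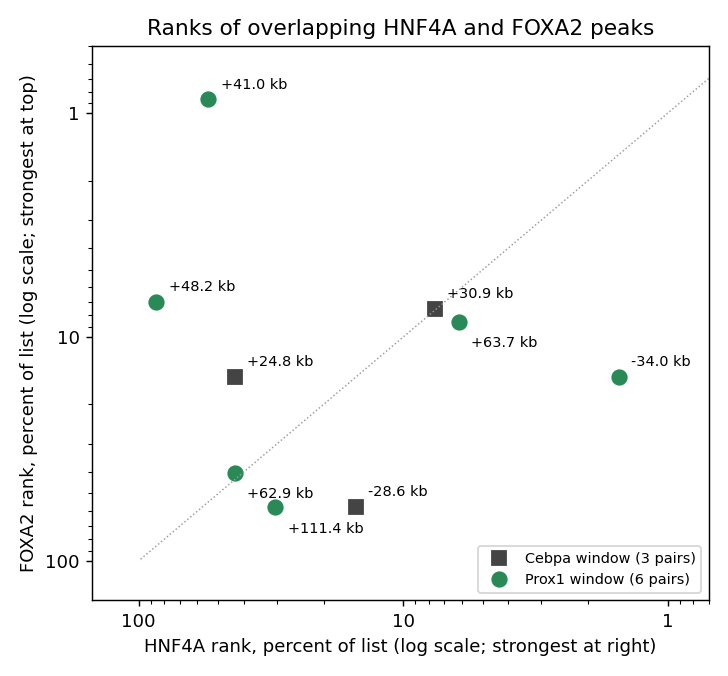
Ranks of the 9 overlapping pairs, as a percent of the HNF4A list (x axis) and of the FOXA2 list (y axis), both on log scales with the strongest peaks at the right and at the top. Squares are Cebpa pairs, circles Prox1 pairs, labels give the distance from the gene start along transcription, and the dotted line marks equal ranks. The Prox1 pairs at 41.0 and 48.2 kb lie far above the line and the pair 34.0 kb before the start far below it, while the Cebpa pair at 30.9 kb lies on it.

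Both windows were dense in peaks. Of 21946 windows of 120 kb laid end to end over the chromosomes, 64.3% held no peak of either factor, 0.365% held at least 7 HNF4A peaks and 0.333% at least 6 FOXA2 peaks. Both numbers were reached together in 9 windows, or 0.041%. Of 13170 windows of 200 kb, 53.8% held none, 0.486% held at least 9 HNF4A peaks, 0.6% at least 7 FOXA2 peaks, and 14 windows, or 0.106%, reached both. With the 200 kb windows laid from another starting point, 9 windows, or 0.0684%, reached both. The windows at the genes were chosen with results of these data known, so these percentages describe density and test nothing.

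Compared per length, Prox1 had 0.771 times the HNF4A density of Cebpa and 0.7 times the FOXA2 density, from 9 against 7 and 7 against 6 peaks. Differences of so few peaks were not tested. Over both genes, 13 of the 16 HNF4A peaks scored above the list median, or 81.2% (95% Clopper-Pearson interval 54.4 to 96.0%), where 48.6% of the list does. The same was true of 9 of the 13 FOXA2 peaks, or 69.2% (38.6 to 90.9%), an interval that holds the 47.4% of the whole list. Both intervals cover counting error only and are too narrow where neighbouring peaks are not independent, as in the packed group beyond Prox1. The windows were also chosen with results of these data known, so these shares describe the peaks and test nothing. By median score the order of the genes differed between factors. HNF4A had a median of 41 at Cebpa (range 16 to 68) and 25 at Prox1 (17 to 79), and FOXA2 had 16.5 at Cebpa (11 to 38) and 29 at Prox1 (14 to 70). The ranges overlapped for both factors. FOXA2 peaks above the upper quartile of their list (22) numbered 2 of 6 at Cebpa and 5 of 7 at Prox1, and HNF4A peaks above theirs (33) numbered 4 of 7 and 3 of 9. By the definition of an upper quartile, at most 25% of each whole list scores above it. These counts are small, and the difference between the genes was not tested.

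The window edges cut little away at Cebpa. The closest HNF4A peaks outside it were 83.3 kb and 116.2 kb beyond the edges, with scores of 24 and 18, and the closest FOXA2 peak was 19.0 kb beyond, with a score of 19. At Prox1 a further shared pair lay just outside, about 7 kb past the edge on the Smyd2 side, made of an HNF4A peak of score 25 at 191872320 to 191872903 and a FOXA2 peak of score 20 at 191872356 to 191872753. On the other side the nearest peaks were 68.5 kb (HNF4A, score 30) and 141.7 kb away (FOXA2, score 80).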

How the data were processed

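Each library has 1 list of regions deposited by the authors, in which a line gives a chromosome, start, end and whole-number score. What the score stands for is not stated. Aligner, peak caller, threshold and any use of input: not given in the sources used here. Per the submitters' processing notes, the genome build was mm9. Positions were read as 1-based with both ends included, since the lowest mitochondrial start is 1. A closing line without a region in the FOXA2 file was skipped. The windows, and the genes in them, were chosen with earlier results of these data known. Every peak in the windows is named. Gene positions in mm9 are rounded values that came with the choice of windows; strands, neighbours and promoter sequences are from RefSeq (GRCm38.p6), whose coordinates were compared only with each other (a start inside a gene, genes that overlap) and never with the peaks. Other hepatocyte factor genes were not analysed here for want of mm9 positions. Windows laid end to end ran from the first base to the last region on each nuclear chromosome and counted peak centres. The overlap code was tested on simulated data. Thresholds in the top 10% comparison, the group of 3 HNF4A peaks and the forkhead and other words were chosen after the values were seen. The analysis ran in Python 3.11.15 with pandas 2.3.3, numpy 2.4.6, matplotlib 3.10.9 and, for the exact intervals, scipy 1.17.1.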

Additional observations from a re-analysis of the deposited data

How the results depend on the processing

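Shared peaks at Prox1 fell from 6 to 3 for HNF4A and from 6 to 3 for FOXA2 when both lists were limited to peaks at or above their median scores. In each lost pair, the peak of either HNF4A or FOXA2 scored below its list median. The other numbers of peaks and of shared peaks, and both density ratios, stayed within 1.5 times under each alternative run for them. These were a window of 50 kb on each side of the gene, peaks at or above the median score, an overlap of at least 50% of the shorter peak, centres at most 100 bp apart, and peaks at most 1000 bp apart. Leaving out peaks within 10 kb of an input region removed none, since no input region lay that near, and so tested nothing. The density ratio of Prox1 to Cebpa ranged from 0.7 to 0.771 for HNF4A and from 0.673 to 0.9 for FOXA2. Laying the background windows with another starting point, an alternative chosen after seeing the data, changed the share that reached both Prox1 numbers from 0.106% to 0.0684%. No paired analysis was possible because each group has 1 library. With depth unknown, a site without a peak could not be told from one under the threshold.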
